A study of Mus musculus with 11 samples.

Results

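The 29 genes described here make sterols and fatty acids or control and serve that synthesis. They were chosen by gene symbol from what is known of the SREBP pathway. That rule uses no measured value but was written with earlier results of these data known. All 29 were found among the 24718 genes of the count table, and all 29 passed the filter on low counts, which kept 17838 genes. They fall into 7 genes of the mevalonate arm, 11 genes of the squalene and sterol arm, 6 genes of SREBP control and sterol transport, and 5 genes of fatty acid synthesis.

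Bulk RNA-seq was done on mesenchymal stem and progenitor cells (MSPCs) of mouse bone marrow, the stromal cells that support blood formation and can become bone or fat. All 11 mice were female and carried Lepr-Cre;LSL-tdTomato+/-, so that Cre recombinase expressed from the leptin receptor gene switches on 1 copy of a red reporter, and cells were sorted on tdTomato. Reporter cells are thus defined by present or past leptin receptor expression and hold stromal, osteoblastic and fat-forming cells together. The DOX4X group (4 mice) received 4 intravenous injections of doxorubicin, an anthracycline that damages DNA, at 5 mg/kg and 1 week apart, starting at an age of 8 to 10 weeks. The DOX1X group (3 mice) received 1 intravenous injection at 10 mg/kg as young adults, and the PBS group (4 mice) received 4 intravenous injections of phosphate-buffered saline. Cells were collected 8 weeks after treatment, and the design asks what chemotherapy leaves behind in these skeletal progenitors. The regimens differ in both dose and number of injections, so that no dose series can be read from them.

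Cholesterol is built from acetyl-CoA through mevalonate, isoprenoid diphosphates, squalene and lanosterol, and fatty acids are built from the same acetyl-CoA by carboxylase, synthase, elongase and desaturase enzymes. Transcription of most of these enzymes is driven by the sterol regulatory element binding proteins, SREBP-2 (Srebf2) mainly for sterols and SREBP-1 (Srebf1) mainly for fatty acids. Scap carries the SREBPs from the endoplasmic reticulum to the Golgi for cleavage when sterol is low, and the Insig proteins hold Scap back when sterol is high. In marrow stroma, lipid synthesis is known chiefly from the cells that become marrow adipocytes.

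Promoter sequence was available from RefSeq (GRCm38.p6) for 23 of the 29 genes, all but Fdps, Fdft1, Sqle, Scd1, Scd2 and Stard4. The sequences below are the 180 bases before the annotated start of 8 genes, written 5′ to 3′ on the strand of the gene. Shown are Hmgcs1, the genes whose levels followed it closely (Idi1, Msmo1, Cyp51 and Insig1), the factor gene Srebf2, and Scap and Tm7sf2, whose levels did not follow it. Capitals mark matches, on either strand, to TCACNCC (the start of the sterol regulatory element consensus), GGGCGG (the core of Sp-type GC boxes, read CCGCCC on the opposite strand) and CCAAT (the core bound by NF-Y, read ATTGG on the opposite strand).
Hmgcs1 (chr13:119690171-119690350, plus strand): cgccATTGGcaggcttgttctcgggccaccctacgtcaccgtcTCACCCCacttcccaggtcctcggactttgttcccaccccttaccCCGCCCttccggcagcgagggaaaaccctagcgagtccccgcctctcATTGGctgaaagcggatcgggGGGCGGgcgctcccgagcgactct
Idi1 (chr13:8885426-8885605, plus strand): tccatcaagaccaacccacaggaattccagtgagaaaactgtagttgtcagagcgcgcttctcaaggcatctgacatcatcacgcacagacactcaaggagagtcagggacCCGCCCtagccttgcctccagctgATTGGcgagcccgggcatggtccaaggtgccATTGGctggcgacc
Msmo1 (chr8:64733579-64733758, minus strand): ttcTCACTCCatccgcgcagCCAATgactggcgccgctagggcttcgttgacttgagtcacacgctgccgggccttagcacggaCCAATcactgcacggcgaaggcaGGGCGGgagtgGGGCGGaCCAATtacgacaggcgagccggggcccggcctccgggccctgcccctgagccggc
Cyp51 (chr5:4104698-4104877, minus strand): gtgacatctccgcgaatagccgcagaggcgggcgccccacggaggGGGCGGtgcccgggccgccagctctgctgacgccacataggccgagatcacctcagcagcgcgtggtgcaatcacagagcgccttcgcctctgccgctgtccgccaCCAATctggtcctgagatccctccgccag
Insig1 (chr5:28071232-28071411, plus strand): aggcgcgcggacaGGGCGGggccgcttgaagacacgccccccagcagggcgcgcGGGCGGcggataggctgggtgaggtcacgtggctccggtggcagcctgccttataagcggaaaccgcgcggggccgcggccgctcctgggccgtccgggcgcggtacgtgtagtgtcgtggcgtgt
Srebf2 (chr15:82147089-82147268, plus strand): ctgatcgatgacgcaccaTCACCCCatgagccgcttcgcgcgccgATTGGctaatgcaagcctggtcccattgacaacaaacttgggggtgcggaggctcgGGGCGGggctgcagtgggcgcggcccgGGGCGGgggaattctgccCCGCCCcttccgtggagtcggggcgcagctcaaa
Scap (chr9:110333108-110333287, plus strand): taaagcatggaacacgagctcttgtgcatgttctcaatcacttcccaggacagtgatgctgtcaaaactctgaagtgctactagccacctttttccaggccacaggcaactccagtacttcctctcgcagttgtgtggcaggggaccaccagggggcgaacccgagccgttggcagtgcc
Tm7sf2 (chr19:6067851-6068030, minus strand): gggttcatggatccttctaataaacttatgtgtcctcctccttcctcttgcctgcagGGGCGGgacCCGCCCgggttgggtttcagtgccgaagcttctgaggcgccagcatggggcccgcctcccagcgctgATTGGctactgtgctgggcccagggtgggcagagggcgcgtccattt
Matches to different motifs did not overlap in these 8 windows. TCACNCC stood in the 180 bases shown for Hmgcs1, Msmo1 and Srebf2, and those of Scap held none of the 3 motifs. The 300-base window at the same Scap start held 1 GGGCGG, after the start, and the window at its other annotated start held 3. Over the full 300-base windows at the first annotated start, TCACNCC was found in 4 of 23 genes (17.4%), against 15.6% of 27025 genes with a window. CCAAT was found in 18 of 23 (78.3%), against 38.02% of all genes and 38.6% of 12084 genes that were tested. GGGCGG was found in 17 of 23 (73.9%), against 35.9% of all genes and 60.9% of tested genes. These are matches of letters and not known sites.

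The 4 DOX4X libraries held 31129352 to 36888310 counts each, the 3 DOX1X libraries 33496356 to 42002065 and the 4 PBS libraries 29540422 to 42784036. All 14 marrow stromal markers of the labelled cell type were detected in every group. In DOX4X against PBS 10 of them lay below 0 (median log2 difference -0.14, 3 lower at an unadjusted p under 0.05 and none called), with Prrx1 at -0.32 (SE 0.08) and Pdgfra at -0.31 (SE 0.12) wholly below PBS, and in DOX1X against PBS 9 of 14 lay below 0 (median -0.02). Prrx1 and Pdgfra were named after their values were seen, and the part of this shift in the levels of the 29 genes was not tested. The summed level of the markers in CPM (counts scaled to the size of the library) was 62138 to 73588 in DOX4X, 62270 to 78268 in DOX1X and 68196 to 77891 in PBS. One library has labels that disagree, since its title names doxorubicin while its treatment label and library name place it with PBS; it was kept as PBS 4. Column names place PBS 1 to 4 with DOX1X 1 and 2 on flow cell 1, and DOX1X 3 with DOX4X 1 to 4 on flow cell 2, so that DOX4X and PBS share no flow cell and can be compared apart from it only through DOX1X. In a fit with flow cell as a term, that term is set by DOX1X 3 against DOX1X 1 and 2. Values from that fit thus rest on 1 library, DOX1X 3. Values of blood-cell markers follow the comparisons.

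Levels of the 29 genes spanned more than 2 orders of magnitude per length of exon. Levels between genes are given as CPM per kilobase, with exon lengths taken from GENCODE M21 for all 29 genes. Insig2, the Insig form whose gene is not a classical SREBP target, stood highest at 72.6 CPM per kilobase on average over the 11 libraries, with libraries between 57.9 and 106. Scd2, a stearoyl-CoA desaturase, came next at 25.5 (17.7 to 40.0), and its ranges overlapped those of the next genes in the order, Ebp at 24.9 (22.4 to 28.9), Sc5d at 23.9 (16.4 to 30.3) and Insig1 at 19.7 (15.3 to 25.7). Ebp (a sterol isomerase) and Sc5d (a sterol desaturase) were thus the highest of the sterol enzymes. In the mevalonate arm, Acat2 (cytosolic thiolase, the entry step) had 19.1 CPM per kilobase and Hmgcs1 (HMG-CoA synthase, the next step) had 13.9. The factor genes Srebf2 and Srebf1 lay close together at 12.8 and 12.1, with overlapping ranges. The lowest 3 were Tm7sf2 (a sterol reductase) at 1.171, Lss (lanosterol synthase, which closes the ring system) at 0.988, and Fdps (farnesyl diphosphate synthase) at 0.302 CPM per kilobase. Exon lengths count every annotated exon, so that a gene with many long unused isoforms is set too low on this scale.

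**Figure D1:**
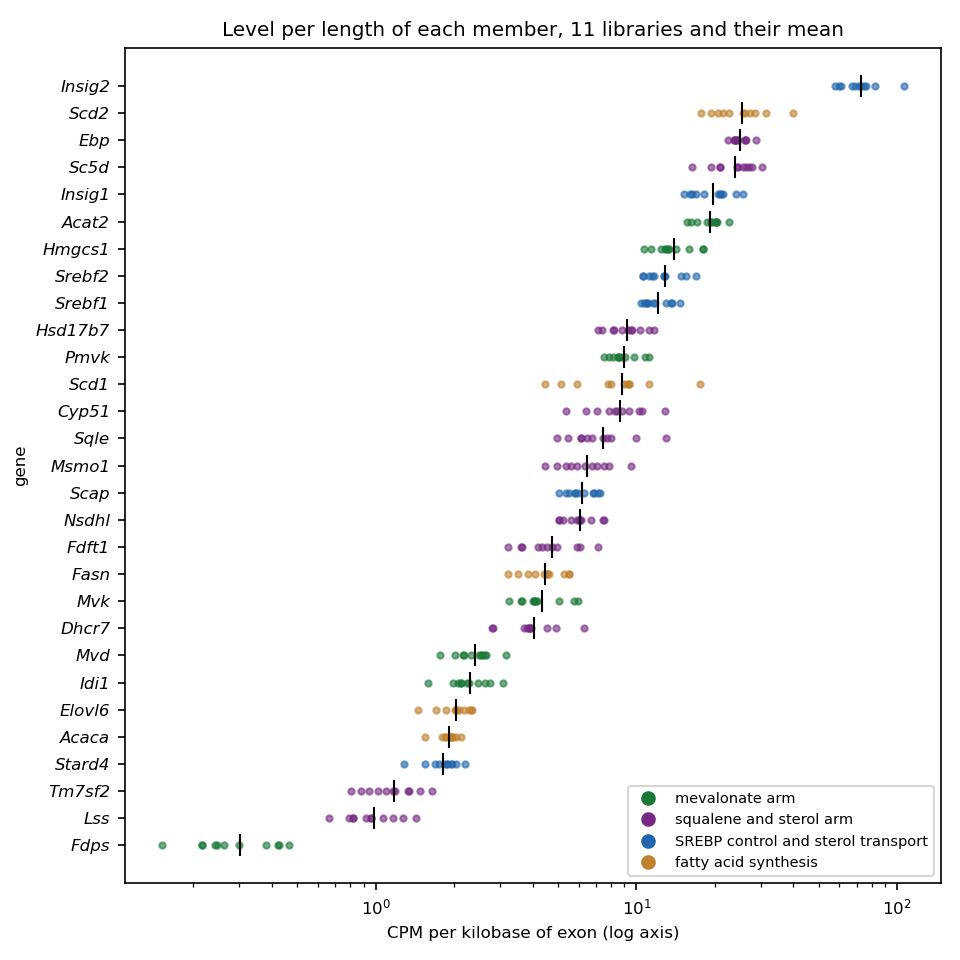
Level of each of the 29 genes in CPM per kilobase of exon (log axis), with a point for each of 11 libraries, a bar for their mean and colours for the role of the gene. Insig2 stands apart at the top (mean 72.6) and Fdps at the bottom (mean 0.302), and the libraries of 1 gene spread far less than the genes do.

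Some of these levels are uncertain because transcripts share sequence, and no source used here states how reads with several alignments were counted. A search of the annotated transcripts for stretches of at least 200 bases at 95% identity or more found 5 other genes for Fdps, 4 of them processed pseudogenes, and Fdps itself held only 21 to 73 counts per library. Acat2 shared 1477 bases with Acat3, which held only 93 counts over all libraries. It also shared 445 bases with Tcp1 on the opposite strand, which held 56107 counts against 18504 for Acat2. Scd1 and Scd2 shared 623 bases at 95.5% identity. Dhcr7 shared up to 227 bases with 22 other genes, and Msmo1 up to 203 bases with 10. Fdft1 overlaps Ctsb, a cathepsin gene on the opposite strand with 778816 counts over all libraries against 7722 for Fdft1, and the library kit does not mark strand. Tm7sf2 shared 532 bases with its neighbour Vps51 on the same strand.

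Mouse-to-mouse variation in these genes was wide and ran through most of the sterol pathway together. Library PBS 2 held the highest level of 18 of the 29 genes and of 14 of the 18 mevalonate and sterol enzymes, and DOX4X 2 held the lowest level of 10 of the 29 and 7 of the 18. Averaged over those 18 enzymes, the log2 level (prior count 2) relative to the mean of all libraries was -0.18, -0.31, 0.11 and 0.16 in DOX4X 1 to 4, 0.12, -0.23 and -0.05 in DOX1X 1 to 3, and 0.10, 0.42, -0.07 and -0.07 in PBS 1 to 4. The group means were -0.06 ± 0.23 in DOX4X (SD, n = 4), -0.05 ± 0.18 in DOX1X (n = 3) and 0.10 ± 0.23 in PBS (n = 4), so that the groups overlapped and differed by less than 1 SD of the libraries. The fatty acid genes gave -0.07 ± 0.12 in DOX4X, -0.01 ± 0.23 in DOX1X and 0.08 ± 0.27 in PBS on the same scale. Because PBS 2 stands apart in these genes, the medians of the arms are given with and without it, as are single genes whose difference it turns round or mostly makes up.

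**Figure D2:**
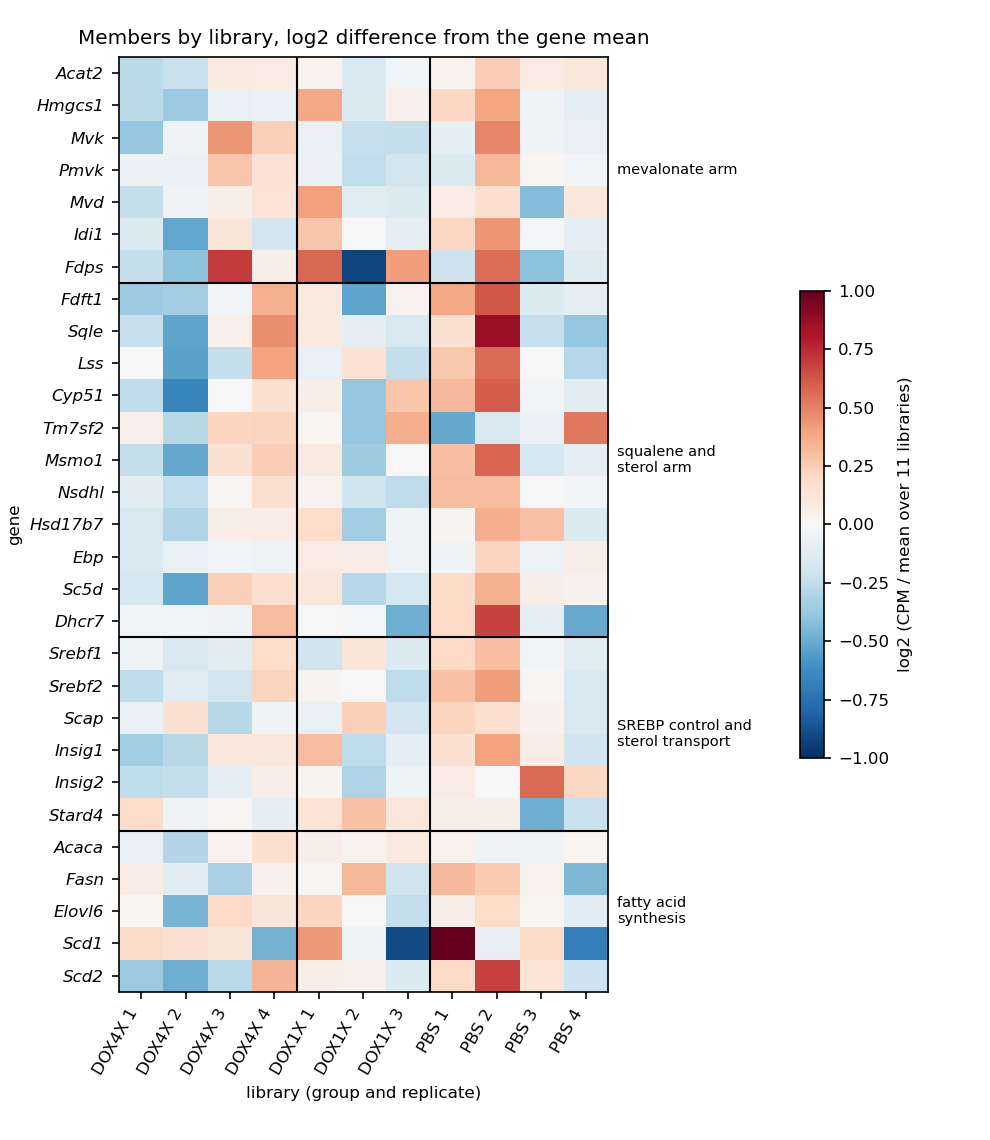
Log2 ratio of each gene's CPM to its mean over the 11 libraries (colour, red higher and blue lower), with genes in rows grouped by role and libraries in columns (DOX4X, DOX1X, PBS). The PBS 2 column is red through most sterol rows and the DOX4X 2 column blue. Of the fatty acid rows, Scd2 follows that order, and DOX4X 2 is also lowest for Elovl6 and Acaca. Fasn and Scd1 have other libraries at both ends.

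After 4 injections, none of the 29 genes differed from PBS at an adjusted p under 0.05 (edgeR's quasi-likelihood test, Benjamini-Hochberg over 17838 genes), where 0.146% of all genes were called (26 genes, and 0 to 80 with each library left out). At an unadjusted p under 0.05, 2 of the 29 were lower and none was higher, where 7.85% of all genes were lower and 6% were higher. The fitted log2 difference was below 0 for 25 of the 29 genes, against 47.8% of all genes, with a median of -0.20 (-0.40 for Scd2 to 0.15 for Stard4) and a median of 0.01 over all genes. No gene of the 29 had DOX4X and PBS libraries that failed to overlap, where 4.68% of all genes lay wholly lower and 3.17% wholly higher. With each library left out the median ran from -0.25 (without PBS 4, whose labels disagree) to -0.08 (without PBS 2). It was -0.13 without DOX4X 1, -0.12 without DOX4X 2, and -0.03 with flow cell as a term. After 1 injection, again none of the 29 was called against PBS, where 0.00561% of all genes were called, and at an unadjusted p under 0.05 1 of the 29 was lower (3.74% of all genes) and none was higher (3.42%). There 24 of the 29 lay below 0 with a median of -0.20, against 48.8% of all genes and a median of 0.01. The median of the 29 came to -0.25 without PBS 4, -0.05 without PBS 2 and -0.14 with flow cell as a term. These comparisons share the PBS libraries and are not independent of each other. Between DOX4X and DOX1X, none was called (0.00561% of all genes), 18 of 29 lay below 0 (50.3% of all genes), and the median was -0.02, with a range of -0.10 (without DOX4X 4) to 0.05 (without DOX4X 2 or DOX1X 1) over the fits with each library left out. There none of the 29 was lower at an unadjusted p under 0.05 (2.13% of all genes) or higher (2.23%), and none lay wholly lower (2.79%) or wholly higher (3.19%). The 29 genes are bulk measurements, in which fewer cells of a type and less RNA per cell cannot be told apart.

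In the mevalonate arm, 5 of 7 genes had a log2 difference below 0 in DOX4X against PBS, with a median of -0.01 (3 of 7 and 0.05 without PBS 2). Hmgcs1 held 52.3, 49.0, 59.8 and 60.7 CPM in the 4 DOX4X libraries, 82.5, 57.2 and 65.3 CPM in the 3 DOX1X libraries and 73.0, 82.9, 61.4 and 59.1 CPM in the 4 PBS libraries. The DOX4X libraries lay low and close together, but their highest value passed the lowest PBS value, so that the groups overlapped. Its log2 difference from PBS was -0.32 (SE 0.14, unadjusted p = 0.038, edgeR adjusted p = 0.33) after 4 injections, with a 95% interval of the fold of 0.653 to 0.985, and -0.02 (SE 0.15) after 1 injection. Between DOX4X and DOX1X its log2 difference of -0.30 (SE 0.15) had the smallest unadjusted p of the 29 genes in that comparison (0.061, edgeR adjusted p = 1.00), and ran from -0.41 without DOX1X 2 to -0.14 without DOX1X 1. Over the alternatives fitted, the DOX4X difference from PBS ran from -0.39 (without PBS 4) to -0.22 (without PBS 2), and its adjusted p was never below 0.217. Idi1, the isomerase that makes the isoprenoid building blocks interchangeable, held 7.24, 5.56, 8.63 and 6.95 CPM in the 4 DOX4X libraries, 9.64, 7.97 and 7.44 CPM in the 3 DOX1X libraries and 9.18, 10.8, 7.86 and 7.47 CPM in the 4 PBS libraries. Its log2 difference from PBS was -0.31 (SE 0.17) after 4 injections and -0.08 (SE 0.19) after 1 injection, and all 3 groups overlapped. With flow cell as a term the Idi1 difference after 4 injections was -0.07, and without PBS 2 it was -0.20. Acat2 averaged 45.9 ± 6.18 CPM in DOX4X, 46.7 ± 2.95 CPM in DOX1X and 52.5 ± 3.46 CPM in PBS, a log2 difference from PBS of -0.19 (SE 0.10) after 4 injections and -0.17 (SE 0.11) after 1.

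The kinases and the decarboxylase between Hmgcs1 and Idi1 did not share that ordering. Mvk, mevalonate kinase, had a log2 difference of -0.00 (SE 0.19) in DOX4X against PBS and -0.27 (SE 0.20) in DOX1X against PBS, and Pmvk, phosphomevalonate kinase, had 0.02 (SE 0.12) in DOX4X against PBS and -0.22 (SE 0.13) in DOX1X against PBS. For both kinases DOX4X 3 was among the high libraries, at 15.5 CPM for Mvk and 18.5 CPM for Pmvk, close to PBS 2 at 16.0 CPM for Mvk and 19.2 CPM for Pmvk. Mvd, the decarboxylase, averaged 4.40 ± 0.49 CPM in DOX4X, 4.66 ± 1.07 CPM in DOX1X and 4.42 ± 0.77 CPM in PBS. Fdps held 1.02, 0.907, 1.96 and 1.25 CPM in the 4 DOX4X libraries, 1.79, 0.637 and 1.60 CPM in the 3 DOX1X libraries and 1.04, 1.77, 0.906 and 1.10 CPM in the 4 PBS libraries. High and low libraries occurred in every group, 3.07-fold apart at the most, and its log2 difference of 0.09 from PBS after 4 injections had an SE of 0.38.

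In the squalene and sterol arm, 10 of 11 genes had a log2 difference below 0 in DOX4X against PBS (median -0.21) and 10 of 11 in DOX1X against PBS (median -0.23), with none called in either. Without PBS 2 the counts were 8 of 11 (median -0.08) in DOX4X and 9 of 11 (median -0.07) in DOX1X against PBS. With flow cell as a term they were 8 of 11 (median -0.11) in DOX4X and 10 of 11 (median -0.20) in DOX1X. Cyp51, which removes a methyl group from lanosterol, held 31.1, 23.7, 37.3 and 41.4 CPM in the 4 DOX4X libraries, 38.9, 28.4 and 45.2 CPM in the 3 DOX1X libraries and 46.6, 56.7, 36.4 and 34.7 CPM in the 4 PBS libraries. Its lowest value was DOX4X 2 and its highest PBS 2. DOX4X 1 also lay below all PBS libraries, and DOX4X 3 and 4 lay among them. The log2 difference of -0.39 (SE 0.21, edgeR adjusted p = 0.43) was the lowest of the sterol arm in DOX4X against PBS, beside -0.22 (SE 0.22) in DOX1X against PBS. Without PBS 2 these were -0.23 in DOX4X and -0.07 in DOX1X. Msmo1, the methylsterol oxidase of the next steps, held 33.0, 27.4, 43.2 and 46.1 CPM in the 4 DOX4X libraries, 41.5, 30.5 and 39.2 CPM in the 3 DOX1X libraries and 48.2, 58.5, 34.5 and 36.4 CPM in the 4 PBS libraries. The same libraries were lowest and highest, and the log2 differences were -0.25 (SE 0.20) in DOX4X and -0.26 (SE 0.22) in DOX1X against PBS. Without PBS 2 they were -0.08 in DOX4X and -0.10 in DOX1X. Sqle, squalene epoxidase and a rate-limiting step of the pathway, held 33.9, 27.6, 41.4 and 55.1 CPM in the 4 DOX4X libraries, 42.7, 37.4 and 35.7 CPM in the 3 DOX1X libraries and 44.3, 72.3, 34.0 and 30.4 CPM in the 4 PBS libraries. PBS 2 stood alone at the top, the rest of PBS lay among the treated libraries, and the log2 difference after 4 injections was -0.20 (SE 0.26). Without PBS 2 it turned to 0.12, and in DOX1X against PBS it was 0.09 in place of -0.23. Fdft1, squalene synthase, averaged 18.7 ± 4.59 CPM in DOX4X, 18.2 ± 4.05 CPM in DOX1X and 23.0 ± 5.97 CPM in PBS, with log2 differences of -0.30 (SE 0.22) in DOX4X against PBS and -0.33 (SE 0.24) in DOX1X against PBS. Without PBS 2 these were -0.14 in DOX4X and -0.18 in DOX1X. With the mean level of blood-cell markers as a covariate, DOX4X against PBS was -0.14 for Cyp51, -0.04 for Msmo1 and -0.09 for Fdft1. In DOX1X against PBS the same fit gave 0.07 for Cyp51, -0.004 for Msmo1 and -0.09 for Fdft1. With flow cell as a term, DOX4X against PBS was -0.81 for Cyp51, -0.37 for Msmo1 and -0.51 for Fdft1. That term rests on DOX1X 3, which held the most Cyp51 of the 3 DOX1X libraries.

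The remaining sterol enzymes had log2 differences between -0.23 and 0.07 in DOX4X against PBS. Ebp was the steadiest of the 29 genes, with a highest library only 1.29 times the lowest, and averaged 54.5 ± 2.06 CPM in DOX4X, 58.8 ± 3.00 CPM in DOX1X and 59.6 ± 5.21 CPM in PBS. Its log2 difference in DOX4X against PBS was -0.13 (SE 0.07), and the 95% interval of the fold, 0.818 to 1.02, was among the narrowest. Sc5d averaged 111 ± 25.7 CPM in DOX4X, 107 ± 15.6 CPM in DOX1X and 129 ± 13.5 CPM in PBS. Nsdhl and Hsd17b7 act in removing the methyl groups of the sterol ring. Nsdhl had log2 differences of -0.20 (SE 0.12) in DOX4X and -0.29 (SE 0.14) in DOX1X against PBS, and Hsd17b7 had -0.22 (SE 0.14) in DOX4X and -0.20 (SE 0.15) in DOX1X against PBS. Lss had -0.23 (SE 0.22) in DOX4X and -0.22 (SE 0.24) in DOX1X against PBS. Without PBS 2 they were -0.07 in DOX4X and -0.06 in DOX1X. Dhcr7, which makes cholesterol in the last step of 1 branch, had -0.07 (SE 0.21) in DOX4X and -0.29 (SE 0.23) in DOX1X against PBS. Without PBS 2 they were 0.16 in DOX4X and -0.05 in DOX1X. Tm7sf2 was the gene of this arm above 0, and held 5.23, 4.16, 5.84 and 5.88 CPM in the 4 DOX4X libraries, 5.11, 3.85 and 6.49 CPM in the 3 DOX1X libraries and 3.53, 4.51, 4.82 and 7.27 CPM in the 4 PBS libraries. The PBS libraries spanned the whole range of this gene, and its log2 difference from PBS was 0.07 (SE 0.24) after 4 injections and 0.04 (SE 0.26) after 1.

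**Figure D3:**
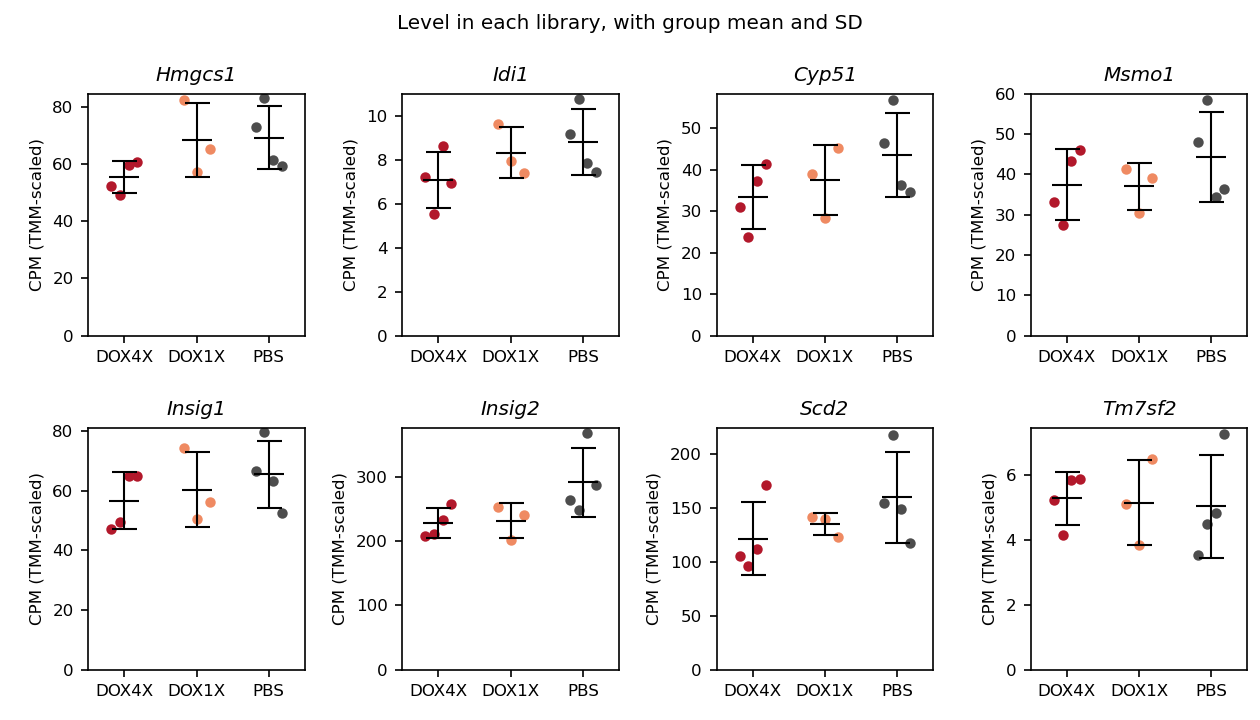
CPM (TMM-scaled) of 8 genes in each library, in panels by gene, with points for libraries, a bar for the group mean and whiskers for 1 SD (DOX4X n = 4, DOX1X n = 3, PBS n = 4). Hmgcs1 and Insig2 have DOX4X means of 55.4 and 228 CPM beside PBS means of 69.1 and 291 CPM, and the points of the groups overlap in every panel.

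Among the genes of SREBP control and sterol transport, 5 of 6 lay below 0 in DOX4X against PBS (median -0.17) and 5 of 6 in DOX1X against PBS (median -0.14). Without PBS 2 both counts were still 5 of 6, with medians of -0.10 in DOX4X and -0.06 in DOX1X. With flow cell as a term they were 3 of 6 (median 0.01) in DOX4X and 4 of 6 (median -0.10) in DOX1X. Insig2 had the smallest p of the 29 genes against PBS in both comparisons, and held 208, 211, 233 and 258 CPM in the 4 DOX4X libraries, 253, 201 and 240.4 CPM in the 3 DOX1X libraries and 263, 248, 368 and 287 CPM in the 4 PBS libraries. PBS 3 stood well above every other library, and DOX4X and PBS overlapped between 248 and 258 CPM. The log2 difference was -0.36 (SE 0.13, unadjusted p = 0.017, edgeR adjusted p = 0.26) after 4 injections and -0.33 (SE 0.14, unadjusted p = 0.036, edgeR adjusted p = 0.66) after 1 injection. Without PBS 3 the difference was -0.22 after 4 injections and -0.20 after 1 injection. Over the alternatives the DOX4X difference ran from -0.44 (with flow cell as a term) to -0.22, and its adjusted p was never below 0.119. Insig1, itself a classical SREBP target, averaged 56.7 ± 9.63 CPM in DOX4X, 60.4 ± 12.5 CPM in DOX1X and 65.5 ± 11.2 CPM in PBS, a log2 difference from PBS of -0.21 (SE 0.16) after 4 injections and -0.12 (SE 0.17) after 1. Srebf2 averaged 86.7 ± 13.4 CPM in DOX4X, 86.9 ± 9.11 CPM in DOX1X and 102 ± 18.1 CPM in PBS, and the log2 differences were -0.23 (SE 0.14) in DOX4X and -0.23 (SE 0.15) in DOX1X against PBS. Srebf1 had -0.12 (SE 0.11) in DOX4X and -0.16 (SE 0.12) in DOX1X against PBS, and Scap had -0.13 (SE 0.12) in DOX4X and -0.07 (SE 0.13) in DOX1X against PBS.

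Stard4, a carrier of free cholesterol between membranes, had log2 differences above 0 and held 11.4, 9.74, 10.2 and 9.40 CPM in the 4 DOX4X libraries, 10.985, 12.3 and 10.9 CPM in the 3 DOX1X libraries and 10.5, 10.5, 7.19 and 8.64 CPM in the 4 PBS libraries. Every DOX1X library lay above every PBS library, with a log2 difference of 0.31 (SE 0.15, unadjusted p = 0.062, edgeR adjusted p = 0.70), while DOX4X overlapped both other groups at 0.15 (SE 0.14) above PBS on the log2 scale. Acaca, the acetyl-CoA carboxylase that commits carbon to fatty acids, was the other gene with DOX1X wholly above PBS, although the lowest DOX1X library and the highest PBS library both round to 33.2 CPM. These 2 of 29 stand beside 3.18% of all genes with DOX1X wholly above PBS, and none of the 29 lay wholly below, beside 3.82% of all genes.

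All 5 fatty acid genes had a log2 difference below 0 in DOX4X against PBS, with a median of -0.14 and none called, and 4 of 5 in DOX1X against PBS, with a median of -0.04. DOX4X and PBS share no flow cell. With flow cell as a term 2 of 5 lay below 0 in DOX4X against PBS, with Scd2 at -0.20. Scd1 at 0.86, Elovl6 at 0.30 and Fasn at 0.23 lay above it. That term rests on DOX1X 3, whose Scd1 level was the lowest of the study. With the mean level of blood-cell markers as a covariate, DOX4X against PBS was -0.54 for Scd1, -0.36 for Scd2 and -0.28 for Fasn. The same fit gave -0.04 for Elovl6 and 0.09 for Acaca. Without PBS 2 the medians were -0.08 (5 of 5 below 0) in DOX4X and 0.01 (2 of 5) in DOX1X against PBS. Scd2 had the lowest difference of the 29 genes, and held 105, 96.7, 112 and 171 CPM in the 4 DOX4X libraries, 142, 140.4 and 124 CPM in the 3 DOX1X libraries and 155, 218, 149 and 117 CPM in the 4 PBS libraries. DOX4X 4 lay among the highest libraries of the study, and the other 3 DOX4X libraries lay below all PBS libraries. Its log2 difference from PBS was -0.40 (SE 0.20, unadjusted p = 0.071, edgeR adjusted p = 0.41) after 4 injections and -0.24 (SE 0.22) after 1, and the difference after 4 injections came to -0.61 without DOX4X 4 and -0.21 without PBS 2. The difference after 1 injection came to -0.05 without PBS 2. Scd1, the desaturase that is prominent in adipocytes and liver, held 45.9, 45.2, 43.9 and 29.016 CPM in the 4 DOX4X libraries, 54.5, 39.0 and 21.7 CPM in the 3 DOX1X libraries and 85.5, 38.2, 46.0 and 25.1 CPM in the 4 PBS libraries. It varied 3.93-fold over the libraries, the most of the 29, and PBS alone covered most of that range. The 95% interval of its fold in DOX4X against PBS, 0.495 to 1.43, was accordingly wide. Fasn, fatty acid synthase, averaged 45.9 ± 5.50 CPM in DOX4X, 50.4 ± 9.45 CPM in DOX1X and 50.7 ± 11.3 CPM in PBS. Elovl6, which lengthens palmitate, had -0.05 (SE 0.15) in DOX4X and -0.04 (SE 0.17) in DOX1X against PBS, and Acaca had -0.03 (SE 0.09) in DOX4X and 0.07 (SE 0.10) in DOX1X against PBS.

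**Figure D4:**
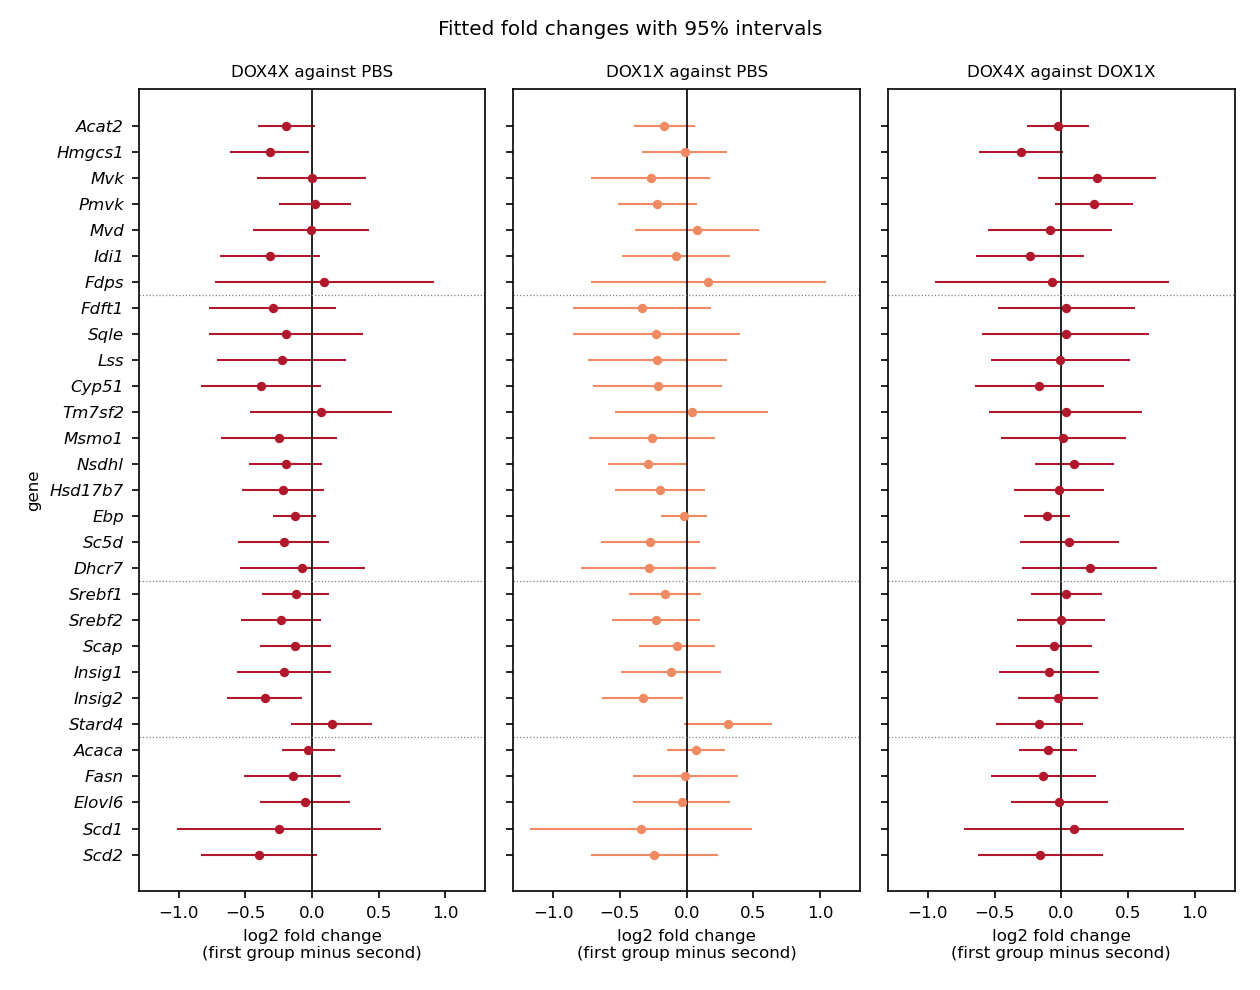
Fitted log2 fold change (point) with its 95% interval (line) for the 29 genes in DOX4X against PBS, DOX1X against PBS and DOX4X against DOX1X, each as the group named before minus the group named after. Most points of the comparisons with PBS lie left of 0, and the intervals that leave out 0 are those of Hmgcs1 (DOX4X against PBS) and Insig2 (both comparisons with PBS), unadjusted for the number of genes.

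The sterol genes varied together from mouse to mouse. Over the 11 libraries, which are not matched for other cells in the sort, flow cell or group, the log2 level of Hmgcs1 was most like those of Insig1 (Pearson r = 0.88, Spearman 0.91) and Idi1 (0.88 and 0.73) among the 29 genes. Insig1 ranked 2 and Idi1 ranked 3 of 17837 genes in likeness to Hmgcs1, and Cyp51 (0.83), Msmo1 (0.80), Fdft1 (0.77), Scd2 (0.74) and Hsd17b7 (0.74) were also among the nearest 100. For the other 17 mevalonate and sterol enzymes the median r with Hmgcs1 was 0.67, against -0.01 over all genes, and as deviations from group means it was 0.79, against 0.02. Leaving out PBS 2 and DOX1X 1, the libraries farthest from the median of Hmgcs1, the median was 0.56, and 10 of the 17 enzymes had an r over 0.5. Without them Cyp51 kept an r of 0.91, Msmo1 0.81 and Idi1 0.76, while Mvd (0.19), Mvk (0.15), Dhcr7 (0.05) and Pmvk (-0.06) did not follow Hmgcs1. Within flow cell 1 (6 libraries) the median over the enzymes was 0.70, and flow cell 2 held 5 libraries, too few for a correlation. The 5 genes outside the 29 that were most like Hmgcs1 at a mean of at least 5 CPM were Mpnd (0.91), Srpx2 (0.86), Ttc21b (0.85), Nol3 (0.85) and Lmo7 (0.85).

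Some pairs were closer than any with Hmgcs1. Of the 406 pairs of the 29 genes, the highest r were those of Fdft1 with Msmo1 (0.95), Cyp51 with Msmo1 (0.94), Lss with Srebf1 (0.91) and Mvk with Pmvk (0.91). With the 2 libraries farthest from the median of the gene named before left out, they were 0.91, 0.85, 0.90 and 0.71. The median r over pairs was 0.65 within the squalene and sterol arm, 0.56 within the mevalonate arm, 0.59 between these arms, 0.37 within the fatty acid genes and 0.14 within the control and transport genes. Tm7sf2 had a negative r to 15 of the other 28 genes and a positive r to 13 (median -0.09, highest 0.46 with Fdps), with its lowest r to Scap (-0.89, and -0.91 without PBS 1 and PBS 4), Fasn (-0.82, and -0.66 without them) and Scd1 (-0.76, and -0.52 without them). Insig2 and Stard4 had an r of -0.86, which was -0.53 without PBS 3 and DOX1X 2. Part of the Tm7sf2 transcript is shared with Vps51, as given above.

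**Figure D5:**
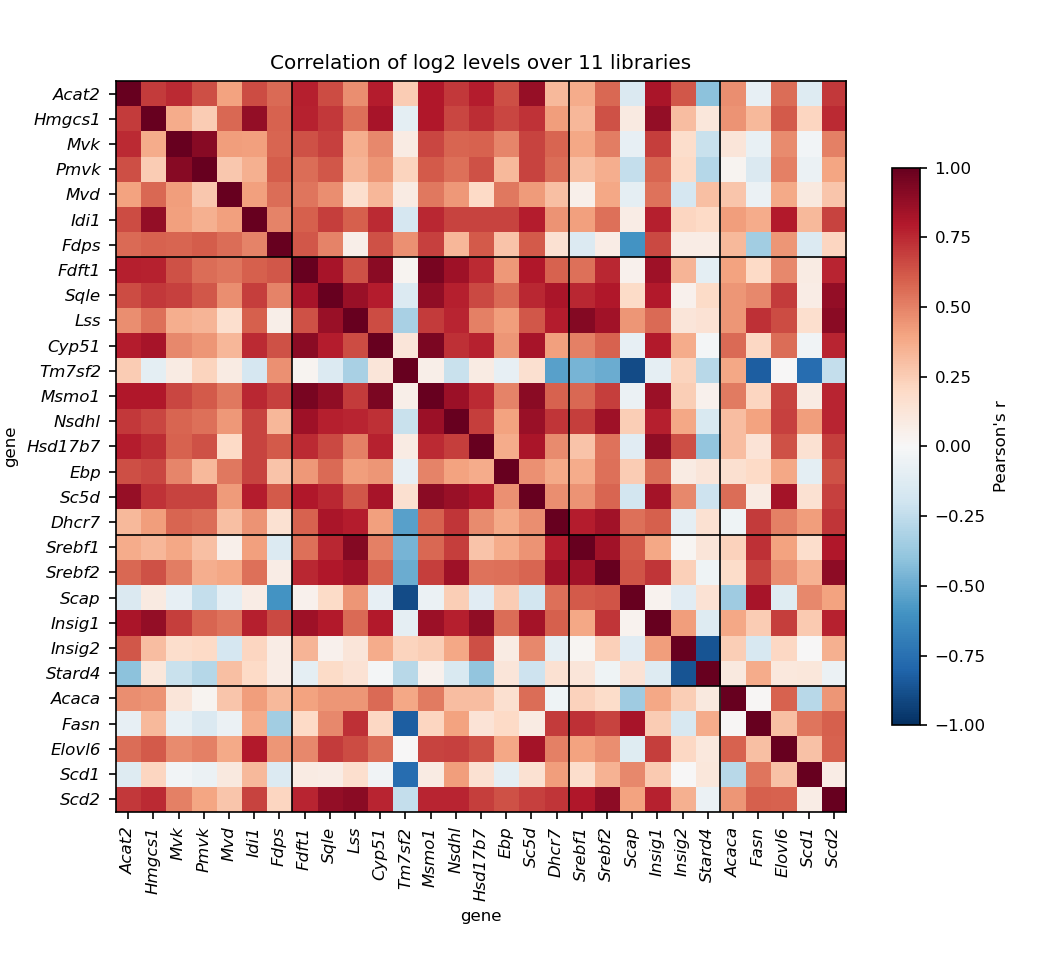
Pearson's r of log2 levels over the 11 libraries for each pair of the 29 genes (colour, red positive and blue negative), in the order of the roles. The mevalonate and sterol blocks are mostly red, and Tm7sf2 stands out as a row and column of pale or blue cells, with its lowest r to Scap (-0.89).

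Around the 29 genes, 6 further lists of lipid genes were read from the same fits, and no gene of any list was called in any of the 3 comparisons. Among 12 other sterol and isoprenoid enzymes, 6 lay below 0 in DOX4X against PBS (median -0.01). Ggps1, which makes geranylgeranyl diphosphate, averaged 90.8 ± 3.68 CPM in DOX4X, 92.2 ± 1.57 CPM in DOX1X and 107 ± 8.73 CPM in PBS, without overlap of either treated group with PBS (log2 difference -0.23, SE 0.07, edgeR adjusted p = 0.19 in DOX4X, and -0.21, SE 0.08, edgeR adjusted p = 0.61 in DOX1X). Among 12 genes of SREBP cleavage and turnover, 9 lay below 0 (median -0.04), and Mbtps1, the site-1 protease that makes the initial cut in SREBP, had -0.33 (SE 0.10, edgeR adjusted p = 0.20) in DOX4X against PBS. Of 13 tested genes of sterol uptake and lysosomal export, 9 lay below 0 (median -0.12), with Vldlr, a lipoprotein receptor, at 70.4 ± 17.2 CPM in DOX4X, 71.2 ± 46.2 CPM in DOX1X and 128 ± 39.4 CPM in PBS. Of 15 genes of the LXR arm, efflux and esterification, 11 lay above 0 (median 0.07, against 0.01 over all genes). Abcg1, a sterol exporter, held 5.75 ± 0.49 CPM in DOX4X, 2.97 ± 0.79 CPM in DOX1X and 2.99 ± 1.13 CPM in PBS, and DOX4X lay wholly above both (log2 difference from PBS 0.94, SE 0.30, edgeR adjusted p = 0.21). Abca1, of the same list, went the other way, at 62.8 ± 12.1 CPM in DOX4X, 85.2 ± 6.18 CPM in DOX1X and 70.7 ± 10.9 CPM in PBS. Its DOX4X libraries lay wholly below DOX1X. Cyp7b1 was at -0.47 (SE 0.22) in DOX4X against PBS. Of 27 other fatty acid and glycerolipid genes, 15 lay below 0 (median -0.05), with Acacb at 0.99 (SE 0.37), Dgat2 at 0.36 (SE 0.16) and Fads1, a desaturase of polyunsaturated fatty acids, at -0.38 (SE 0.16) in DOX4X against PBS. Of 18 genes listed for fatty acid oxidation, 10 lay below 0 (median -0.01). Ucp2, a mitochondrial carrier and not an oxidation enzyme, was at 0.88 (SE 0.40), with DOX4X and PBS libraries that overlapped.

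Markers of B cells, erythroid cells, neutrophils, and T and natural killer cells were mostly higher in the treated groups, with none called. All 13 B lineage markers lay above 0 in DOX4X and in DOX1X against PBS, with medians of 1.14 in DOX4X and 0.79 in DOX1X, and their summed level was 151 to 380 CPM in DOX4X, 151 to 222 CPM in DOX1X and 91.9 to 165 CPM in PBS. All 13 erythroid markers lay above 0 in both comparisons, with summed levels of 579 to 1397 CPM in DOX4X, 443 to 1093 CPM in DOX1X and 265 to 831 CPM in PBS. Of 15 neutrophil markers, 12 lay above 0 in DOX4X and 15 in DOX1X against PBS. They summed to 278 to 1082 CPM in DOX4X, 252 to 922 CPM in DOX1X and 190 to 666 CPM in PBS, and no marker of these lists was at 0 throughout a group. All 12 T and natural killer cell markers lay above 0 in both comparisons, with medians of 0.99 in DOX4X and 0.95 in DOX1X. All 23 cell division genes did too, with medians of 0.76 in DOX4X and 0.57 in DOX1X and none called. The part of both lists in the results was not tested. Monocyte and macrophage markers had no such direction, with 7 of 13 above 0 in each comparison with PBS (median 0.23 in DOX4X and 0.04 in DOX1X), and summed to 329.7 to 545 CPM in DOX4X, 357 to 369 CPM in DOX1X and 298 to 494 CPM in PBS. In DOX4X against PBS 2 of them were lower and 1 was higher at an unadjusted p under 0.05. The mean log2 level of the blood-cell markers was highest in DOX1X 1, DOX4X 2 and DOX4X 1. Over the 11 libraries its r was lowest with Acat2 (-0.66), Cyp51 (-0.63) and Msmo1 (-0.58), and was -0.30 with Hmgcs1. It was above 0 with Stard4 (0.34), Fasn (0.17), Scd1 (0.14), Scap (0.12) and Dhcr7 (0.02), and below 0 with the rest of the 29. With the mean level of blood-cell markers as a covariate, the median log2 difference of the 29 genes was -0.14 in DOX4X against PBS and -0.09 in DOX1X against PBS. Endothelial markers, all 13 of which lay above 0 in DOX4X against PBS (median 0.88) and below 0 in DOX1X against PBS (median -0.59), summed to 529 to 976 CPM in DOX4X, 214 to 388 CPM in DOX1X and 161 to 612 CPM in PBS, and their part in the results was not tested.

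Markers of the lineages that stroma forms stood beside these results. All 11 adipocyte markers tested lay above 0 in DOX4X against PBS (median 0.47) with none called, and 5 of 11 in DOX1X against PBS (median -0.11). Fabp4, a fatty acid carrier, averaged 357 ± 127 CPM in DOX4X and 133 ± 52.0 CPM in PBS, and Cd36, a fatty acid receptor, 55.9 ± 18.03 CPM in DOX4X and 21.6 ± 12.7 CPM in PBS. DOX1X 1 to 3 held 92.6, 87.7 and 192 CPM of Fabp4 and 18.4, 18.8 and 21.5 CPM of Cd36. Both genes were highest in DOX4X 2, the library with the highest endothelial sum (976 CPM). Adipoq, of the same list, held 2383 to 2984.5 CPM in DOX4X and 2019 to 2728 CPM in PBS, so that its groups overlapped. The lipid-making genes Fasn, Scd1, Scd2, Acaca and Elovl6 lay below 0 in the same comparison. With flow cell as a term Fasn, Scd1 and Elovl6 lay above 0, as given above. With the blood-marker level as a covariate Acaca was at 0.09, and Fasn, Scd1, Scd2 and Elovl6 stayed below 0. Of 11 osteoblast markers, 10 lay below 0 in DOX4X against PBS (median -0.44), and Spp1 and Mmp13 fell by 1.58 and 1.27 on the log2 scale (edgeR adjusted p = 0.037 and 0.043). They were among the 26 genes called over the whole table (0.146%). That number changed widely between fits, as given below, and the fits in which Spp1 and Mmp13 stayed called are not given here. The part of these cell types in the levels of the 29 genes was not tested.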

How the data were processed

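The authors deposited raw gene counts, not normalized, as a table of 24718 genes by 11 libraries. The submitters' processing notes name the GRCm39 build and, in no stated order, featureCounts 2.0.1, STAR 2.7.9a, SAMtools 1.17, Trim Galore 0.6.6, MultiQC 1.7 and FastQC 0.11.5. Annotation, strand setting and multi-mapping are not stated. Per the labels' protocols, cDNA came from the SMART-Seq v4 Plus kit.

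Genes were kept with filterByExpr (edgeR 4.0.16, R 4.3.3), scaled with TMM, and fitted with group means over all 11 libraries. Differences were tested two-sided with edgeR's quasi-likelihood test, Benjamini-Hochberg over 17838 genes, threshold 0.05; kept genes held at least 99.9% of counts. The SE is the fold change over the root of F. Levels are mean CPM ± SD on TMM-scaled library sizes. Correlations used log2 CPM (prior count 2) and have no test. The procedure was tested on simulated data. Lengths and shared sequence came from GENCODE M21 (GRCm38) by symbol, and promoters from RefSeq.

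Alternatives were other scalings, filters (none, or 5 CPM in 3 libraries), DESeq2 1.42.0, limma-voom (limma 3.58.1), a robust prior, 2 groups alone, a replicate block, each library left out, a blood-marker covariate (mean log2 level of B lineage, erythroid, neutrophil and macrophage lists), and flow cell. The 29 genes, lists and tests were chosen with earlier results of these data known. From further lists, up to 3 genes with the smallest p per comparison could be named; some genes of these lists are counted in them and not reported singly here.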

Additional observations from a re-analysis of the deposited data

Results flagged for a closer look

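In each group of 4 libraries the highest and the lowest level of each of the 29 genes were compared with the nearest other library, as a share of the whole range of the group (Dixon's ratio, at its 95% critical value for 4 values). Of 58 groups tested, 4 passed, where chance gives about 1 in 20. Dhcr7 in DOX4X had a ratio of 0.954, with DOX4X 4 at 28.6 CPM and the other libraries between 22.2 and 22.5 CPM. Scd1 in DOX4X had a ratio of 0.882, with DOX4X 4 at 29.02 CPM, below the 43.9 to 45.9 CPM of the others. Mvk in PBS had a ratio of 0.93, with PBS 2 at 16.0 CPM and the others between 10.73 and 11.1 CPM. Mvd in PBS had a ratio of 0.853, with PBS 3 at 3.27 CPM, below the 4.69 to 4.94 CPM of the others.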

How the results depend on the processing

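None of the 29 genes was called in any comparison under any of the alternatives, DESeq2 and limma-voom included. Of 1966 single-gene differences over 24 alternatives, 1947 moved by less than the spread between replicates and 19 moved by more. Of the 1966, 163 changed sign, all with a size of at most 0.34 in the reported fit. The largest size there was 0.40 (Scd2 in DOX4X against PBS), so that this bound takes in most of the differences. The number of genes called over the whole table was far less stable. For DOX4X against PBS it was 26, and 599 with DESeq2, 56 with limma-voom, 1 with only these groups fitted, 2 with the blood-marker covariate, 6 with flow cell as a term, and 0 to 80 with each library left out (80 without PBS 4, 47 without DOX1X 3, 7 without DOX4X 4, and 0 to 3 without any other). For DOX1X against PBS it was 1, and 41 with DESeq2, 5 within flow cell 1, and 1 to 2 with each library left out. For DOX4X against DOX1X it was 1, and 28 with DESeq2, and 1 to 2 with each library left out. The cause of these differences was not tested. The median of the 29 genes ran from -0.25 to -0.08 (DOX4X against PBS), -0.25 to -0.05 (DOX1X against PBS) and -0.10 to 0.05 (DOX4X against DOX1X) with each library left out. Replicate numbers did not pair the mice: over 10 same-numbered pairs the deviations from group means had an r of -0.12 to 0.35, and 2 were over 0.1. With the replicate block, 10, 6 and 2 genes were called in DOX4X against PBS, DOX1X against PBS and DOX4X against DOX1X. Depth limits Fdps most, at 21 to 73 counts per library.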
